A study of Mus musculus with 8 samples.

Results

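*Cd36*, *Lpl*, *Fabp3*, *Acsl1*, *Cpt1a*, *Cpt1b*, *Acadm*, *Ppard*, *Ppargc1a* and *Pdk4* are 10 genes through which a muscle cell takes up fatty acids, burns them and sets the balance between fat and glucose as fuel. They were chosen by name from the 27179 entries of the expression table, and 9 of them were among the 11406 genes with enough signal to be tested. C2C12 cells, a single immortalized line of mouse myoblasts, were sampled while dividing in growth medium (GM) and once differentiation medium had been on them for 3 days (3d DM), in which time they fuse into myotubes. GM cultures were kept in high glucose medium with 10% fetal bovine serum and were taken at 50% confluence, and 3d DM cultures had passed 90% confluence before the same base medium was given with 2% horse serum. In each state there were 2 input libraries, which give expression, and 2 libraries of RNA precipitated with an antibody against N6-methyladenosine (m6A), all from cells on dishes coated with collagen and with no genetic change or drug in either state. The labels do not say whether the replicates were separate cultures, so p-values rest on the spread between these samples only, which may be technical. For expression this spread was taken from a trend over all tested genes, and hardly from a gene's own replicates.

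Long-chain fatty acids enter muscle through the membrane protein CD36, in part after lipoprotein lipase has freed them from circulating triglycerides, and are carried in the cytoplasm by the heart and muscle binding protein FABP3. Acyl-CoA synthetases activate them, the CPT1 enzymes of the outer mitochondrial membrane commit them to oxidation, and acyl-CoA dehydrogenases such as ACADM start each round of beta oxidation. The nuclear receptor PPAR delta and its coactivator PGC-1 alpha raise many of these genes in muscle, and PDK4 shuts off the pyruvate dehydrogenase complex so that glucose is spared. The mark m6A is a methyl group on adenosines of messenger RNA, laid down mostly near stop codons at a motif called DRACH, in which any base but C is followed by A or G, by AC, and by any base but G.

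The stretches of RNA under the peaks of 4 of the genes are shown first, because they are where the antibody signal of this set lay. Each is a window of 21 bases around the DRACH match (capitals) closest to the middle of the stretch that the gene's peaks had in common, in the 3′ UTR, read from the mm10 genome (GRCm38.p6).
*Cpt1a*, chr19:3384006-3384026, plus strand, central A 175 nt after the stop codon: ttgacttgTGACCctactaca
*Acsl1*, chr8:46534633-46534653, plus strand, central A 163 nt after the stop codon: agggcacgGAACActgcctta
*Ppard*, chr17:28299966-28299986, plus strand, central A 127 nt after the stop codon: cgtggcccAGACTcttccccc
*Pdk4*, chr6:5485350-5485370, minus strand, central A 89 nt after the stop codon: tttccgcaAAACAacgcaaca

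The form GGACT, which m6A writers use often, was searched in the 1 stretch per gene that holds its overlapping peaks after the stop codon, and not under other peaks. It was present 1 time in *Ppard*, *Acsl1* and *Pdk4*, 2 times in *Cpt1a* and not in *Ppargc1a*. These windows were chosen after the peaks had been seen, and the capitals mark the match.
*Ppard*, chr17:28299887-28299907, plus strand, central A 48 nt after the stop codon: ccagccacGGACTgttcagag
*Acsl1*, chr8:46534589-46534609, plus strand, central A 119 nt after the stop codon: ctgccgccGGACTtgtccacg
*Pdk4*, chr6:5485367-5485387, minus strand, central A 72 nt after the stop codon: atgtgtgtGGACTctagtttc

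The state of the cells and the libraries were checked before the genes were read. *Myh3*, *Mymk*, *Ckm* and *Myog*, which mark the fusing myotube, were higher in 3d DM by 4.06 to 6.26 on the log2 scale, and *Mki67*, which marks dividing cells, fell by 2.63 on the log2 scale (limma, all adjusted p under the threshold of 0.05). Each column of the table summed to about the same total, between 12534657 and 12536233. These totals are thus not the depth of each library, which was not derived. One entry without a symbol took 24.4% to 41.3% of each library. The GM libraries were not alike. The summed level of the 9 myoblast and myotube markers was 5651 in GM replicate 1 and 2269 in GM replicate 2, against 62667 and 89838 in 3d DM, and *Ckm*, the muscle creatine kinase, was at 110 and 17.1 in GM. *Adipoq*, *Plin1*, *Retn*, *Lep* and *Fabp4*, which define adipocytes, were listed at 0 in all 4 libraries, and the sum of the 8 adipocyte markers ran from 44.6 to 149, nearly all of it *Pparg*. The macrophage markers summed to 12.2 to 26.4 and the endothelial markers to at most 10.5, with *Adgre1* and *Kdr* at 0.

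The values of the genes in the input libraries are described in order of the path a fatty acid takes. They are normalized read counts as the authors deposited them, and differences are 3d DM minus GM on the scale of log2(value + 1). On it the change of a low gene comes out too small. The SE is that of limma, with Benjamini-Hochberg adjustment over all 11406 genes.

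*Cd36*, the fatty acid translocase of the membrane (Entrez 12491, mm10 chromosome 5, 17781690 to 17888959), had the largest log2 difference of the 9 tested genes. It was at 10.5 and 9.03 in GM and at 385 and 409 in 3d DM. All 3d DM values lay far above all GM values, and the replicates of each state were close together. The means were 9.77 ± 1.04 and 397 ± 16.8 (SD, n = 2), a 40.6-fold rise, with a log2 difference of 5.21 ± 0.55 (SE, limma, adjusted p = 2.15e-19). In bulk RNA of this kind, a change in the share of cells that carry a transcript and a change in its amount per cell cannot be told apart.

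*Fabp3*, which carries fatty acids through the cytoplasm (Entrez 14077, chromosome 4, 130308738 to 130315463), was at 79.3 and 19.1 in GM and at 507 and 394 in 3d DM. The states did not overlap, and within GM replicate 1 was the higher library. Its mean rose 9.17-fold, from 49.2 ± 42.5 to 451 ± 79.9 (SD, n = 2), with a log2 difference of 3.48 ± 0.50 (SE, limma, adjusted p = 1.12e-10). The difference was 4.48 without GM replicate 1 and 2.48 without GM replicate 2, both past the threshold. The call was lost with no filter on low values (limma, adjusted p = 0.371). It was also lost without 3d DM replicate 1 (log2 difference 3.3) or 3d DM replicate 2 (3.66), in fits that called far fewer of all genes.

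*Lpl*, the lipase that frees fatty acids from triglyceride-rich lipoproteins (Entrez 16956, chromosome 8, 68880555 to 68906932), went the other way. It was at 134 and 30.1 in GM and at 14.8 and 10.7 in 3d DM. Both GM values were above both 3d DM values, but the 2 GM libraries differed 4.45-fold. The means were 82.1 ± 73.4 and 12.7 ± 2.87 (SD, n = 2), and the log2 difference was -2.25 ± 0.63 (SE, limma, adjusted p = 0.0033). *Lpl* was not called after rescaling the libraries by their median of ratios (log2 difference -2.05, limma, adjusted p = 0.0875) or without GM replicate 1 (-1.20). It was also not called without 3d DM replicate 1 (-2.47) or 3d DM replicate 2 (-2.04). The fits without a 3d DM library called far fewer of all genes too.

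Of the 10 genes, none was called at the steps of activation, mitochondrial entry and oxidation. *Acsl1*, the long-chain acyl-CoA synthetase of muscle, liver and fat (Entrez 14081, chromosome 8, 46471037 to 46536051), was at 224 and 136 in GM and at 259 and 218 in 3d DM. The ranges overlapped, and the log2 difference of 0.44 ± 0.47 (SE, limma) did not pass the threshold (adjusted p = 0.636).

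*Cpt1a* and *Cpt1b* encode the liver and the muscle form of carnitine palmitoyltransferase 1, the gate of fatty acids into mitochondria. *Cpt1a* (Entrez 12894, chromosome 19, 3322326 to 3385735) was at 671 and 339 in GM and at 226 and 313 in 3d DM. Both 3d DM values were below both GM values, which was the case for 37.0% of all tested genes, and the log2 difference of -0.84 ± 0.45 (SE, limma) did not pass (adjusted p = 0.226). *Cpt1b* (Entrez 12895, chromosome 15, 89416405 to 89425862) was at 3.1 and 5.01 in GM and was listed at 0 in both 3d DM libraries. The muscle form was thus under the filter of 25.1 in every library and was not tested, and no fold is given. Of these forms, that of liver alone could be tested.

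*Acadm*, the medium-chain acyl-CoA dehydrogenase of the mitochondrial matrix (Entrez 11364, chromosome 3, 153922353 to 153944643), was at 1276 and 511 in GM and at 497 and 681 in 3d DM. The 3d DM values lay on either side of the lower GM value. The log2 difference of -0.47 ± 0.44 (SE, limma) did not pass (adjusted p = 0.562), and it was 0.19 when GM replicate 1 was left out.

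Of the regulators, *Ppard* (Entrez 19015, chromosome 17, 28232754 to 28301469) encodes the nuclear receptor PPAR delta, which fatty acids activate. It was at 510 and 391 in GM and at 224 and 347 in 3d DM. Both 3d DM values were lower, with a log2 difference of -0.68 ± 0.45 (SE, limma) that did not pass the threshold (adjusted p = 0.37).

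*Ppargc1a* (Entrez 19017, chromosome 5, 51454249 to 52115853) encodes PGC-1 alpha, the coactivator known for driving mitochondrial biogenesis. It was at 60.4 and 6.05 in GM and at 21.9 and 31.1 in 3d DM. The 3d DM values fell between the 2 GM values, and the GM libraries differed 9.98-fold, a larger gap than in 99.7% of the tested genes. The log2 difference was 0.38 ± 0.66 (SE, limma, adjusted p = 0.799). It became 1.94 without GM replicate 1 (adjusted p = 0.0399) and -1.18 without GM replicate 2 (adjusted p = 0.52), so its direction rested on which GM library was kept.

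*Pdk4* (Entrez 27273, chromosome 6, 5483351 to 5496278), a classical target of the PPAR receptors in muscle, was at 172 and 402 in GM and at 187 and 217 in 3d DM. The 3d DM values lay within the GM range. The log2 difference of -0.39 ± 0.47 (SE, limma) did not pass (adjusted p = 0.687), and it was 0.22 without GM replicate 2. *Pdk4* was the one of the 9 tested genes that was higher in GM replicate 2 than in GM replicate 1.

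**Figure D1:**
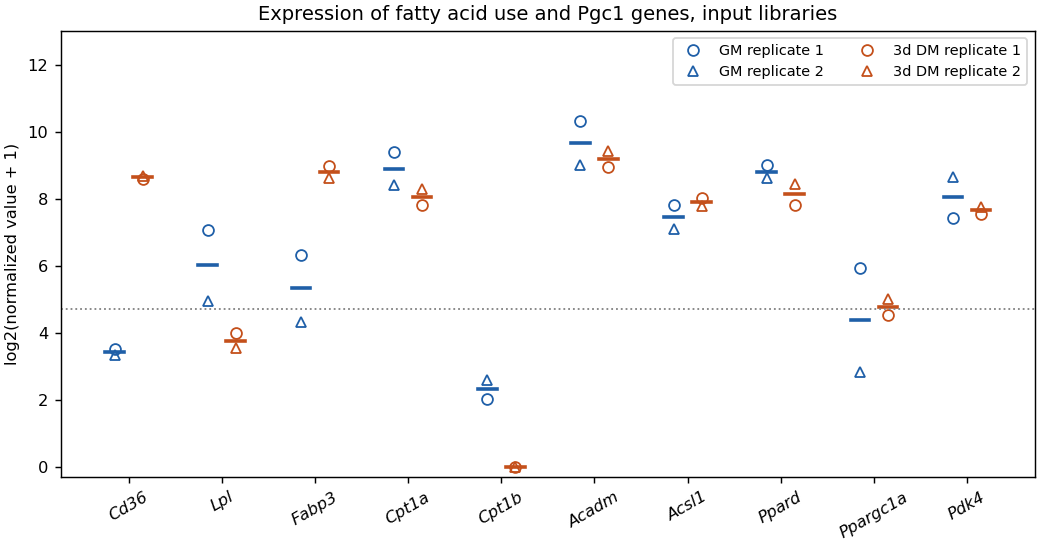
Normalized values of the 10 genes in the 4 input libraries, on an axis of log2(value + 1), with GM in blue, 3d DM in orange, circles for replicate 1, triangles for replicate 2 and bars for the mean of the log2 values. The dotted line is the filter of 25.1. *Cd36* crosses it upwards and *Lpl* downwards, *Fabp3* rises, *Cpt1b* stays under it, and the GM symbols of *Ppargc1a* lie on either side of both 3d DM symbols.

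Counted over the set, 2 of the 9 tested genes rose (*Cd36* and *Fabp3*), 1 fell (*Lpl*) and 6 did not pass. The number with an unadjusted p under 0.05 was also 3. Of all genes tested, 7.01% were called higher in 3d DM and 9.96% lower, together 17.0%. *Cd36* passed the filter only through its 3d DM libraries and *Lpl* only through GM, so these calls had to differ in the direction seen and the count lends no support to a change of the set. The median log2 difference of the 9 genes was -0.39, against -0.22 over all tested genes, a shift that rescaling by the median of ratios moved to -0.01. In both 3d DM libraries 2 genes were above both GM values (16.8% of all tested genes were) and 3 were below them (37.0% of all tested genes were), namely *Lpl*, *Cpt1a* and *Ppard*.

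The GM libraries differed in most of the genes. Their ratio exceeded the median ratio of 1.29 over all genes in 8 of the 9 tested genes, and it was 9.98 in *Ppargc1a*, 4.45 in *Lpl*, 4.15 in *Fabp3*, 2.5 in *Acadm*, 2.34 in *Pdk4*, 1.98 in *Cpt1a*, 1.64 in *Acsl1* and 1.3 in *Ppard*. *Cd36* was the exception, with a ratio of 1.16. In 3d DM only 1 of the 9, *Ppard*, exceeded the median ratio of 1.43. GM replicate 1 was the higher library in 8 of the 9 genes, and in 67.5% of all tested genes. After rescaling by the median of ratios it was the higher one in 7 of the 9 and in 46.8% of all tested genes. It was also the GM library with the higher myotube markers given above. What part these markers have in the spread of *Lpl*, *Fabp3*, *Ppargc1a* and *Acadm* was not tested.

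Per kb of exon, so that genes can be compared, the order of the levels differed between the states. In GM the highest level per kb was that of *Acadm* (619 and 248), which did not overlap with *Ppard* below it (158 and 122). *Ppard*, *Cpt1a*, *Pdk4*, *Fabp3*, *Acsl1* and *Lpl* followed with mean levels from 140 to 20.3 per kb, and in this run each gene overlapped with its next neighbour. *Ppargc1a* (mean level 2.68 per kb), *Cd36* (2.41) and *Cpt1b* (1.4) were lowest, and only the step from *Cd36* to *Cpt1b* was free of overlap among them.

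In 3d DM the order was led by *Fabp3* at 746 and 580 per kb, above *Acadm* at 241 and 330. *Cd36* came next at 94.9 and 101, level with *Ppard* at 69.8 and 108. *Pdk4* and *Cpt1a*, at mean levels of 58.4 and 54.5 per kb, overlapped with each other, and *Acsl1* followed at 34.8. *Lpl* (3.15), *Ppargc1a* (2.13) and *Cpt1b* (0) were lowest, without overlap. The exon length counts every annotated exon of a gene, which lowers the level of a gene with many alternative exons such as *Ppargc1a*.

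Further genes of the same pathways were read from 9 lists of 91 genes in all, of which 81 are not among the 10. Of these, 69 were tested, 6 were called higher in 3d DM and 6 lower. That is 17.4%, beside 17.0% of all tested genes, so the lists as a whole were called at the rate of the background, and their median log2 difference was -0.09. After rescaling by the median of ratios 11 were higher and 7 lower, with a median of 0.12. Over all genes this fit called 23.5%. Of the 12 calls, 0 were left without 3d DM replicate 1 and 3 without 3d DM replicate 2, where 1.27% and 5.93% of all genes were called. Without GM replicate 2, 4 were left (7.66% of all genes called), and with no filter on low values 0 were left (0.567%). The calls of *Plin2*, *Pparg* and *Mgll* were lost when any 1 library was left out. Those of *Acsl5* and *Plin4* were also lost without GM replicate 1, and those of *Angptl4* and *Acsl5* without GM replicate 2.

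In uptake and binding, 8 genes were tested, 2 rose and 2 fell, with a median log2 difference of 0.48. Beside *Cd36*, *Fabp3* and *Lpl*, the list held *Fabp5*, a binding protein known from skin and macrophages. *Fabp5* was at 215 and 339 in GM and at 28.3 and 39.2 in 3d DM, and fell by 2.98 ± 0.52 on the log2 scale (SE, limma, adjusted p = 2.17e-07). The pair of binding proteins thus moved in opposite directions. *Fabp4*, the adipocyte form, was listed at 0 throughout.

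Activation held 5 tested genes, of which 2 rose and 1 fell, none of them *Acsl1*. *Acsl6*, a synthetase best known from brain and muscle, went from 51.8 and 15.1 to 281 and 319, with a log2 difference of 3.37 ± 0.52 (SE, limma, adjusted p = 3.58e-09). *Acsl3*, which serves lipid droplets, went from 1767 and 604 to 3107 and 3949 (log2 difference 1.76, limma, adjusted p = 0.000323), and was not called without GM replicate 2 (0.99, adjusted p = 0.532). *Acsl5* went from 1168 and 1344 to 322 and 455 (log2 difference -1.71, adjusted p = 0.00102).

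No gene of the carnitine shuttle (6 tested), of mitochondrial beta oxidation (16 tested) or of malonyl-CoA control (2 tested) was called by limma, and none had an unadjusted p under 0.05. Their median log2 differences were -0.02, -0.23 and 0.22. After rescaling by the median of ratios, *Acads* of beta oxidation was called (limma, adjusted p = 0.047). On simulated data only 12 of 200 genes planted at a fold of 2 were called, so changes of that size could be missed. Of the lipid droplet genes, 8 were tested, with a median of -0.28. The droplet coats *Plin2* (2685 and 1645 to 619 and 1013, log2 difference -1.41, limma, adjusted p = 0.00754) and *Plin4* (132 and 69.3 to 18.2 and 29, -2.01, adjusted p = 0.00454) fell. *Mgll*, the monoacylglycerol lipase, rose from 18.9 and 16.1 to 35.7 and 92.5 (1.67, adjusted p = 0.0421), and it too passed the filter only through 3d DM.

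The 18 tested PPAR and Pgc1 regulators had a median log2 difference of -0.31, with 1 higher and 1 lower. *Prkaa2*, the catalytic alpha 2 subunit of the energy sensor AMPK, rose from 9.26 and 23.1 to 240 and 268 (log2 difference 4.02 ± 0.55, SE, limma, adjusted p = 1.64e-11). Like *Cd36*, it passed the filter only through 3d DM, so a call could go in this direction alone. *Pparg*, the receptor of adipocyte differentiation, fell from 146 and 135 to 44.5 and 49.3 (-1.57 ± 0.53, SE, limma, adjusted p = 0.0218). *Ppara*, the PPAR of liver, was between 3.12 and 7.28 and was not tested.

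Of the 7 tested PPAR target genes 2 rose and 2 fell, and the 7 included *Cd36*, *Cpt1a* and *Pdk4*. *Angptl4*, a secreted inhibitor of lipoprotein lipase, fell from 280 and 465 to 68.5 and 123 (log2 difference -1.96, limma, adjusted p = 0.000531), in the same direction as *Lpl*. *Ucp2*, an uncoupling protein, rose from 288 and 63.3 to 634 and 830 (2.41, limma, adjusted p = 2.78e-06), and was not called without GM replicate 2 (1.33, adjusted p = 0.376). Targets of 1 family of receptors thus lay on either side of 0.

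Of 12 tested genes of pyruvate dehydrogenase control, *Pdk2* was called. *Pdk2*, a kinase of the same enzyme as *Pdk4*, went from 118 and 19.1 in GM to 259 and 263 in 3d DM (log2 difference 2.42, limma, adjusted p = 2.91e-05). It too depended on the GM libraries, with 1.14 and no call without GM replicate 2. After rescaling by the median of ratios *Pdk2* was not called (limma, adjusted p = 0.0509). In that fit *Pdk1*, *Pdha1*, *Pdp1* and *Pdhx* were called instead, all higher in 3d DM (adjusted p = 0.0178, 0.026, 0.0276 and 0.034).

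**Figure D2:**
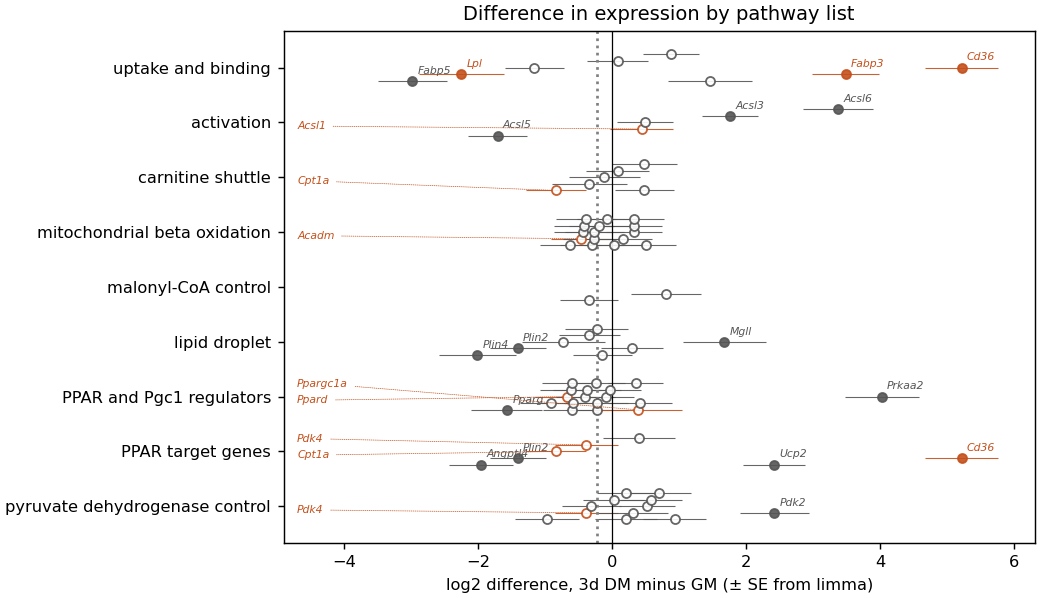
Log2 difference of expression, 3d DM minus GM, for each tested gene of the 9 pathway lists, with the SE of limma as bars. Orange marks the genes of the set, filled symbols those past the adjusted threshold of 0.05, the dotted line the median of -0.22 over all tested genes. Beta oxidation lies close to 0, and the called genes of uptake and of activation lie on either side of it.

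m6A was read from the 4 peak lists, one for each precipitated library against its own input. *Cpt1a*, *Acsl1*, *Ppard*, *Ppargc1a* and *Pdk4* had a peak in at least 1 list, 5 of the 10 genes, and of all tested genes with a symbol 76.2% did. *Cd36*, *Fabp3*, *Lpl*, *Cpt1b* and *Acadm* had none in any list. *Ppard* alone had a peak in all 4 lists, as 42.6% of the tested genes did. In GM the lists held 3 and 5 of the genes, in 3d DM 5 and 2, which is 4.0 ± 1.41 and 3.5 ± 2.12 (SD, n = 2, two-sided exact permutation test, p = 1.0, where 0.33 is the smallest possible).

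The genes that rose were among those without a peak. *Cd36* and *Fabp3* had a mean expression of 397 and 451 in 3d DM. Of the genes within 1.5-fold of these levels, 79.5% of 2749 and 80.9% of 2692 had a peak in either 3d DM list. A peak in both 3d DM lists was held by 60.4% and 62.7% of them. These genes were not matched for transcript length, and the annotated exons of *Fabp3* cover only 680 nt. *Acadm* had no peak in GM or 3d DM, where 85.0% and 82.0% of the genes near its levels had one. For the lowly expressed *Lpl* in GM, the share of genes near its level with a peak was 54.7%. Depth of the precipitated libraries is unknown, so an absent peak says only that none was called.

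*Ppard* had 1 peak in each list, across the stop codon or just after it. In GM it ran from 78 nt before the end of the stop codon to 458 nt after it in replicate 1 (chr17:28299771-28300307) and to 488 nt after it in replicate 2 (chr17:28299771-28300337). In 3d DM it covered 71 to 458 nt after the stop codon in replicate 1 and 12 to 280 nt in replicate 2. The DRACH window printed first lies in the 210 nt that all 4 peaks shared, and the GGACT of *Ppard* lies under the peaks of 3 lists, outside that of 3d DM replicate 1.

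The fold of precipitated over input RNA at the *Ppard* peak was 19.1 and 11.5 in GM, against 3.7 and 5.01 in 3d DM. Both 3d DM values were below both GM values. The mean was 15.3 ± 5.37 in GM and 4.36 ± 0.926 in 3d DM (SD, n = 2), a 3.51-fold lower enrichment in 3d DM and a log2 difference of -1.78, with p = 0.33 in the two-sided exact permutation test, the smallest that 2 against 2 allow. Among the 4989 genes with a peak in all lists, 21.7% were lower in both 3d DM lists and 9.86% higher, the median log2 difference was -0.1, and 20 genes (0.401%) had a difference as low as that of *Ppard*. Its enrichment was above that of 95.0% and 85.1% of these genes in the GM lists and of 29.5% and 42.4% in the 3d DM lists.

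**Figure D3:**
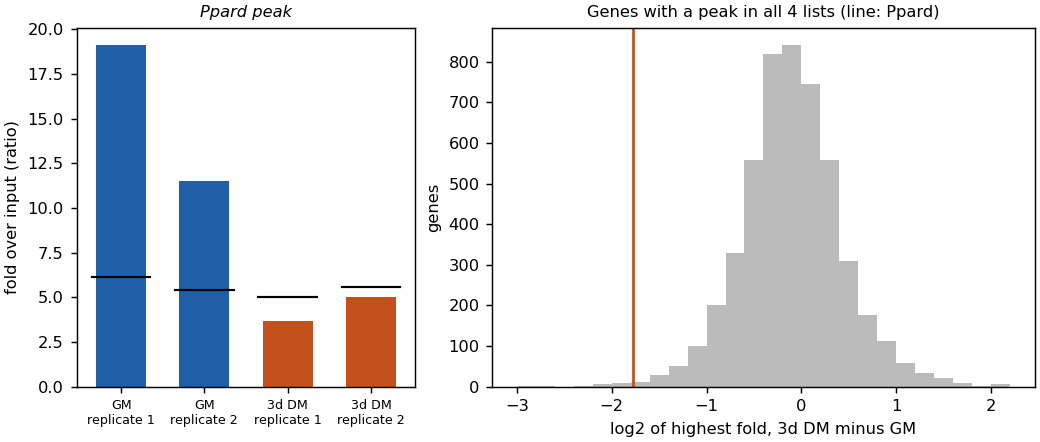
Left, fold over input at the *Ppard* peak in each peak list (bars, GM in blue and 3d DM in orange), with the median over the 4989 genes that have a peak in all 4 lists as black lines. Right, the number of these genes by the log2 difference of their highest fold, 3d DM minus GM, in bins of 0.2, with *Ppard* at -1.78 as a line in the lower tail.

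The other marked genes had peaks in 2 or 3 lists. *Pdk4* had a peak that began 14 nt after the stop codon in 3 lists, with a fold of 5.21 and 4.11 in GM and 6.75 in 3d DM replicate 1. In 3d DM replicate 1 it had a further peak 1592 to 1741 nt after the stop codon with a fold of 4.76, and in 3d DM replicate 2 none. The stretch that the 3 lists shared held 9 DRACH matches in 150 nt.

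*Cpt1a* had 3 peaks in GM replicate 1, 1 in the coding sequence (fold 2.87) and 2 in the 3′ UTR (2.47 and 2.16), and 1 peak of fold 4.83 in GM replicate 2. In 3d DM replicate 1 it had 2, of 4.84 at 10 to 189 nt and of 2.4 at 339 to 428 nt after the stop codon, and again none in 3d DM replicate 2. The list of 3d DM replicate 2 is also the shortest, with 23785 lines against 26568 to 31221 in the others.

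*Acsl1* had no peak in GM replicate 1. Its peak after the stop codon had a fold of 3.42 in GM replicate 2, and of 4.85 and 3.06 in the replicates 1 and 2 of 3d DM, the first of which held a further one of 3.17. At the position that these 3 lists share, the fold was thus between 3.06 and 4.85. *Ppargc1a* had a peak of 7.04 in GM replicate 2, 100 to 220 nt after the stop codon, and of 14.8 in 3d DM replicate 1, 196 to 286 nt after the same stop codon, so that these peaks overlapped by 25 nt. It had none in GM replicate 1, the library with its highest expression.

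**Figure D4:**
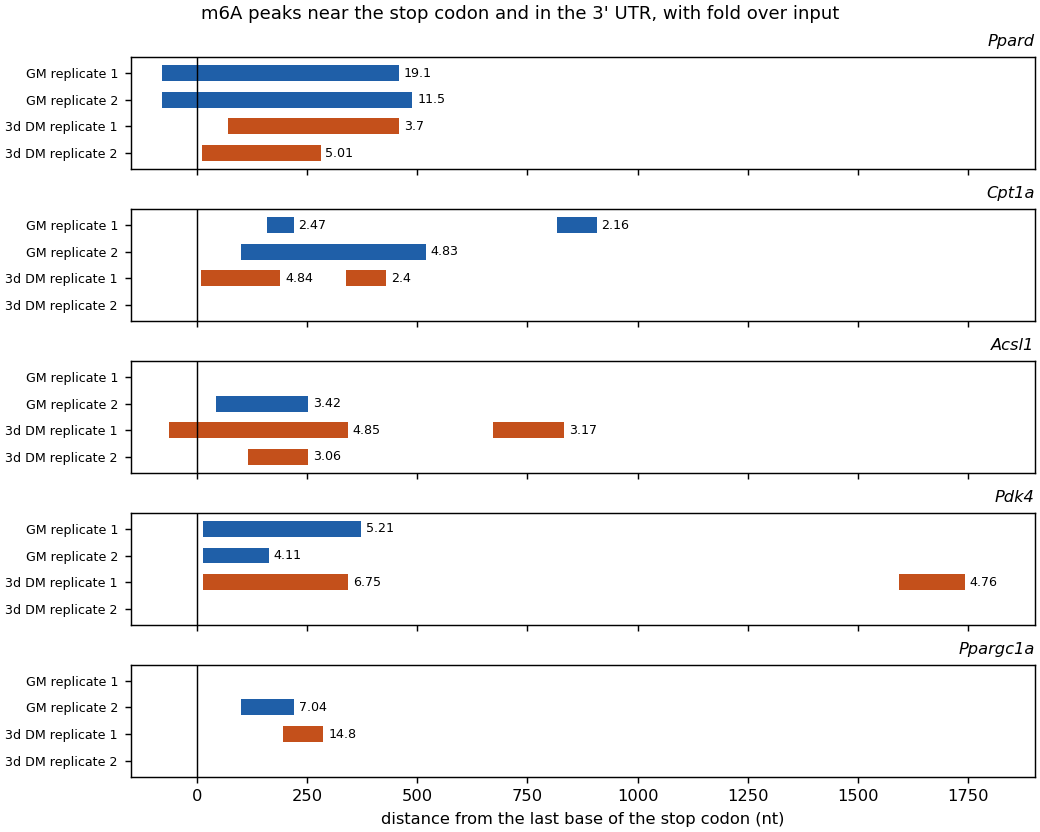
Peaks of 5 genes in each of the 4 lists, by distance in nt from the last base of the stop codon (vertical line), with GM in blue, 3d DM in orange and the fold over input beside each bar. The peak of *Cpt1a* in the coding sequence is not drawn. *Ppard* is the one gene with a bar in every list, and the bars of *Ppard* begin earlier in GM than in 3d DM.

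The promoters of the 2 genes that rose are shown because they share a direction. The 250 bases before the start in the RefSeq table (GRCm38.p6), in which 8 of the 10 genes were found, are given from 5′ to 3′ on the strand of the gene, with E-boxes (CANNTG, the same on both strands), the motif that myogenic factors bind, in capitals. For *Cd36* the table holds 1 start, which lies inside the annotated span of the gene given above, and starts further upstream were not searched.
*Cd36*, chr5:17835897-17836146, minus strand: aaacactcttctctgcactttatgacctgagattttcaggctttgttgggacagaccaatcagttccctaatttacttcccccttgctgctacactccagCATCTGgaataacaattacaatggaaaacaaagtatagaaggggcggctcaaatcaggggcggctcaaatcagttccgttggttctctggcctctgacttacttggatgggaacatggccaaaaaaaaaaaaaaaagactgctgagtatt
*Fabp3*, chr4:130308488-130308737, plus strand: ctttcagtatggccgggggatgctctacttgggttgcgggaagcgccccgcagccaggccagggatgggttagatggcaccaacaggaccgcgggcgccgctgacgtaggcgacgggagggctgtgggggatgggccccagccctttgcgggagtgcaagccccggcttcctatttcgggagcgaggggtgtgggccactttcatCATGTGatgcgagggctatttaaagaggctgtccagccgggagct

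Each held 1 E-box, 150 bases before the start in *Cd36* and 45 bases in *Fabp3*, and 66.2% of the 32851 promoters of the table hold at least 1. The E-boxes differ in their central bases. Neither held a match to the MEF2 motif (2.92% of all promoters on either strand) or to the direct repeat with a spacer of 1 base that PPAR receptors bind (0.0335%). The single PPAR half-site letters AGGTCA were found on either strand in *Cd36*, *Cpt1a* and *Acadm*, and in 14.0% of all promoters. A match describes these letters only, and these data hold no measurement of binding.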

How the data were processed

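The 10 genes, the lists and the tests were chosen with earlier results of these data known. Adaptors were trimmed and reads aligned to mm10 by the authors with HISAT2 2.1.0, per the labels. The deposited expression table holds a normalized signal per Entrez gene, named by the authors for the trimmed mean of M values. Low values of GM replicate 2 lay close to whole numbers (4.01 in *Ppara*, 5.01 in *Cpt1b*, 9.03 in *Cd36*), so they may be near numbers of reads. Those of 3d DM did not always do so (7.28 and 4.91 in *Ppara*). Whole reads were not recovered for the 4 input libraries, so their depth was not derived and no counting error is given. The deposited peak lists, called by the authors with exomePeak per sample against its own input at P ≤ 0.05, give a p-value and a fold (a ratio over input) for each peak. The kit marks strand, but the strand setting of the counting is not given in the sources used here.

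Symbols were assigned by Entrez identifier (98.7% of the tested genes). Expression was tested with limma 3.58.1 (R 4.3.3, intensity trend) on log2(value + 1) for genes that reached a value of 25.1 (2 cpm, taken over a column's sum) in 2 or more of the 4 input libraries. The study's methods use 3, which was run as an alternative. Standard errors followed the trend, so p-values hardly measure a gene's own replicate spread. On simulated data of 11406 genes for this comparison, 185 of 200 genes planted at a fold of 4 and 12 of 200 at a fold of 2 were called.

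Lines of the peak lists that shared at least 1 bp were merged, and the highest fold per gene and list was compared with the two-sided exact permutation test. File starts count from 0 (100% of 103196 inner block starts match GENCODE M21) and are printed counting from 1. The transcripts of *Cpt1a* and *Ppard* were matched without their version, and distances count from the stop codon of a gene's longest listed transcript. Named are all 10 genes, 5 genes that check the state, and in each pathway list up to 4 called genes per direction by size. Other genes named with values (*Ppara*, *Fabp4*, *Actn2*, marker genes at 0 and genes called only after rescaling) were named after their values were seen. Alternatives were other filters, pseudocounts of 0.1 and 4, median-of-ratios rescaling, no trend, a replicate block, stricter peaks and each replicate left out. Rescaling to the total without the largest entry, and median-of-ratios rescaling without the trend, were added after seeing the data. Python 3.11.15, numpy 2.4.6, pandas 2.3.3, scipy 1.17.1, pysam 0.24.0 and matplotlib 3.10.9 were used.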

Additional observations from a re-analysis of the deposited data

How the results depend on the processing

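Of the 10 genes, *Cd36* was called in all 12 alternatives in which it was tested (adjusted p from 1.52e-26 to 0.047), *Fabp3* in 10 of 13 and *Lpl* in 5 of 12. The number of called genes was 3 and became 1 with the filter in 3 libraries, 0 with the filter in all 4 and 1 with no filter, and *Cd36* and *Lpl* were not tested under the filters in 3 or 4 libraries. It ranged from 1 to 3 with each replicate left out, and was 1 without 3d DM replicate 1 or without 3d DM replicate 2. The number of other pathway genes called was 12 and became 7 with the filter in all 4 libraries and 1 with no filter, and ranged from 0 to 8 with each replicate left out, at 4 without GM replicate 2, 0 without 3d DM replicate 1 and 3 without 3d DM replicate 2. Over all genes the share called fell as well, from 17.0% to 7.66%, 1.27% and 5.93% in these cases and to 0.567% with no filter, where the 1 pathway gene called (*Esrrg*) was not among the 12. Directions turned for *Acadm* (0.19 without GM replicate 1, range -1.13 to 0.19) and *Pdk4* (0.22 without GM replicate 2, range -1.0 to 0.22). That of *Ppargc1a* turned too (-1.18 without GM replicate 2, range -1.18 to 1.94). None was called in the main fit or where its direction turned, and the cause was not tested. *Ppargc1a* was past the threshold at 1.94, without GM replicate 1, where *Lpl* was not. The difference in the number of genes with a peak per list, -0.5, turned to 0.5 without GM replicate 2 and 1.0 without 3d DM replicate 2 (range -2.0 to 1.0). The difference in *Ppard* fold ranged from -2.15 to -1.42 with each replicate left out. Both stricter peak settings gave no value for it. With a p-value of 1e-05 or less the peak of 3d DM replicate 2 is dropped. With a fold of at least 4 that of 3d DM replicate 1 (3.7) is dropped. With a lone sample in a state, that sample is assumed to vary like the others.

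With the replicate number as a block, 3 of the 10 genes and 9 of the other pathway genes were called (*Plin2*, *Pparg* and *Mgll* were lost), and the adjusted p of *Lpl* was 0.0181. The numbers only name the samples: with 2 pairs, the correlation of the replicate deviations between states was 0.29 over 11406 genes, and no pairing is stated in the labels.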

Other observations

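Among the 69 other pathway genes tested, 53 (76.8%) had a peak in at least 1 list and 27 in all 4. Of these 27, 6 had a lower highest fold in both 3d DM lists than in both GM lists (22.2%, beside 21.7% of all genes with a peak in all 4 lists) and 2 a higher one. Chosen after their values were seen, *Rxra*, the partner receptor of the PPARs, had folds of 15.7 and 4.9 in GM, against 4.11 and 4.03 in 3d DM. *Pprc1*, a relative of *Ppargc1a*, had folds of 7.76 and 18.8 in GM, against 6.53 and 5.57 in 3d DM. *Nrf1*, a transcription factor of mitochondrial genes, had 16.6 and 11.3 in GM, against 3.08 and 10.0 in 3d DM. All are lower in 3d DM without overlap, and the exact permutation test cannot go below 0.33. *Acsl6*, which rose in expression, had peaks in 3d DM alone, with folds of 12.5 and 19.5, and its expression values in GM were 51.8 and 15.1. *Acsl3*, also called higher, likewise had peaks in 3d DM alone, with folds of 6.0 and 2.08. Its expression values in GM were 1767 and 604. *Pdhx*, not called in the main fit, had peaks in 3d DM alone too (folds of 3.55 and 11.7). *Mlycd*, also not called, had peaks in GM alone (14.0 and 3.03). These genes too were named after their values were seen. The share of all genes with peaks in 1 state alone was not counted, and a link with expression was not tested.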
